A study of Homo sapiens with 9 samples.

Results

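Lactate dehydrogenase A, the lactate carrier SLC16A3, the monocarboxylate carrier SLC16A6 and the membrane carbonic anhydrases CA9 and CA12 all had lower mRNA levels in HepG2 cells carrying either TUG1 hairpin than in control cells, whereas the carrier SLC16A1 was not lower in either line. These genes belong to a set of 8: LDHA, LDHB, SLC16A1, SLC16A3, SLC16A6, BSG, CA9 and CA12. The set was chosen by function, with earlier results of these data known. It covers the making of lactate, its transport across the plasma membrane and the acid that goes with it. SLC16A6 is a carrier of the same family linked to the transport of ketone bodies. Of these 8 genes, 7 are listed in both count tables, among 12854 genes that the tables share, and LDHB was not analysed here. No low-count filter removed any of the 7, although CA12 had few counts.

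The cells are HepG2, an established human line derived from a liver cancer, grown in low-glucose medium. Lentivirus was used to make stable lines whose hairpin RNA is induced by doxycycline, so that the control line (sh-Con) carries the same kind of vector with a control hairpin, and the lines sh1-TUG1 and sh2-TUG1 each carry a different hairpin against TUG1, a long noncoding RNA. Each group had 3 libraries, described as technical replicates, so that the p-values given here measure the spread between such libraries and may not cover the spread between cultures. The duration of doxycycline treatment of the sequenced cells was not given in the sources used here, and both knockdown lines were compared with the same sh-Con libraries. TUG1 itself was not analysed here, and the knockdown was therefore not checked in these counts.

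The total count per library ranged from 33054291 to 39393293. All 12 hepatocyte markers examined were listed, and their summed level was 43227 to 45369 CPM (counts of a gene scaled to the same library total) in sh-Con, 48010 to 49994 CPM in sh1-TUG1 and 51085 to 54375 CPM in sh2-TUG1. The markers did not move alike, since in sh2-TUG1 the means of 4 (ALB, AFP, FGA and FGB) were above sh-Con and those of 8 were below it. ALB had means of 13505, 18457 and 25387 CPM in the order sh-Con, sh1-TUG1 and sh2-TUG1, and SERPINA1 had 7435, 6292 and 4921 CPM. Of 8 markers of leukocytes, endothelium and stroma, 3 were listed (LYZ, PECAM1 and VWF), with sums of 864 to 1088 CPM, 1132 to 1220 CPM and 706 to 768 CPM in the same order of groups, almost all of it LYZ. PTPRC, COL1A1, COL1A2, COL3A1 and DES were not listed. The part of these marker shifts in the results was not tested, and fewer cells of a kind and less RNA per cell cannot be told apart in bulk RNA.

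Glycolysis ends in pyruvate, which LDHA reduces to lactate while it restores the NAD+ that glycolysis consumes. Lactate leaves or enters the cell together with a proton through monocarboxylate carriers, of which SLC16A3 (MCT4) is best known for export from glycolytic cells and SLC16A1 (MCT1) for transport in either direction. BSG (basigin) is the glycoprotein that escorts both carriers to the membrane. CA9 and CA12 face the outside of the cell and convert carbon dioxide and water into bicarbonate and protons, and CA9 is widely used as a marker of hypoxia. Hepatocytes also take up lactate to make glucose from it.

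Promoter sequence was examined for the letters ACGTG, the core of the element bound by hypoxia-inducible factors, and for CACGTG, which contains ACGTG and is the usual E-box of MYC and related factors. Both strands were searched in RefSeq windows (GRCh38.p14) from 250 bases before to 50 bases after each start, and 6 of the 8 genes had such a window. SLC16A1 and SLC16A6 had none. The stretches with a match are shown because the 4 genes they belong to, LDHA, SLC16A3, BSG and CA9, differ widely in their fold changes. Capitals mark the matched letters on the plus strand, and CACGT is ACGTG read on the other strand.
LDHA, chr11:18394367-18394395: gactcccagcgCACGTGgagcagtctgcc
LDHA, chr11:18394465-18394493: agcccgactcaCACGTGggttcccgcacg
LDHA, chr11:18394478-18394506: cgtgggttcccgCACGTccgccggccccc
SLC16A3, chr17:82228962-82228990: cgccaggcggtgACGTGcgcgggggacgt
SLC16A3, chr17:82228975-82229003: cgtgcgcgggggACGTGccgcgccagcga
BSG, chr19:572392-572420: caacgccgggtCACGTGcgccgccgcccg
CA9, chr9:35673898-35673926: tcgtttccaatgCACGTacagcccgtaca

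The first matched base lay 18 bases before the start in CA9, 185, 87 and 73 bases before it in LDHA, 68 and 55 bases in SLC16A3 and 193 bases in BSG. Other windows of LDHA, SLC16A3 and BSG, which have several starts, and those of CA12 and LDHB held no such letters. ACGTG occurred in 21.4% of all 35116 windows and CACGTG in 7.26%. These are shares of windows, not of genes. A gene with several starts has several windows, so the number of genes with a match cannot be set beside these shares. A match describes letters and is no evidence of binding.

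The study concerns miR-122-5p, an abundant liver microRNA, and its sequence is therefore given with the seed (bases 2 to 8) in capitals.
miR-122-5p, RefSeq, GRCh38.p14, chr18:58451088-58451109, plus strand: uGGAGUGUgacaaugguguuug

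The letters that pair with this seed, ACACTCC, were found in 0 of the 8 genes in the longest annotated 3′ UTR of each. Of 11713 genes listed in both tables with such a UTR, 8.55% held it. This says only that these 7 letters are not in those UTRs.

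Relative to sh-Con, 4 of the 7 genes were downregulated differentially expressed genes (DEGs) in sh1-TUG1, the criteria being an adjusted p under 0.05 together with more than a 1.5-fold change, and 0 were upregulated DEGs. The downregulated DEGs were LDHA, SLC16A6, CA9 and CA12, and such genes made up 2.52% of the 13017 genes tested in this comparison, against 2.44% for upregulated DEGs. By adjusted p alone, 5 of the 7 were lower, with SLC16A3 as the fifth, where 12.3% of all genes were lower, and SLC16A1 and BSG did not pass. None of the 7 was higher in sh1-TUG1 by the adjusted p of edgeR, where 12.5% of all genes were, by an unadjusted p under 0.05 (0 genes) or by DESeq2 (0 genes). The median of the 7 was -0.73 on the log2 scale, beside 0.0027 over all genes.

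In sh2-TUG1, LDHA, SLC16A6, CA9 and CA12 were downregulated DEGs as well, 4 of the 7, where 8.97% of 12953 genes were downregulated DEGs, and 0 of the 7 were upregulated DEGs, where 4.35% of all genes were. By adjusted p alone, 6 of the 7 were lower, where 21.9% of all genes were lower, and 1, SLC16A1, was higher, where 21.6% of all genes were higher. The median of the 7 was -0.80, beside -0.0048 over all genes. The sh2-TUG1 libraries lay wholly above sh-Con for SLC16A1, where 27.1% of all genes did, and wholly below it for the other 6, where 27.3% did. In sh1-TUG1 the libraries of 6 of the 7 genes lay wholly below sh-Con, where 20.2% of all genes did, BSG being among them although it missed the threshold, and those of 0 lay wholly above it, where 21.3% did. Since the lines share the control libraries, a deviation of those libraries enters both comparisons.

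**Figure D1:**
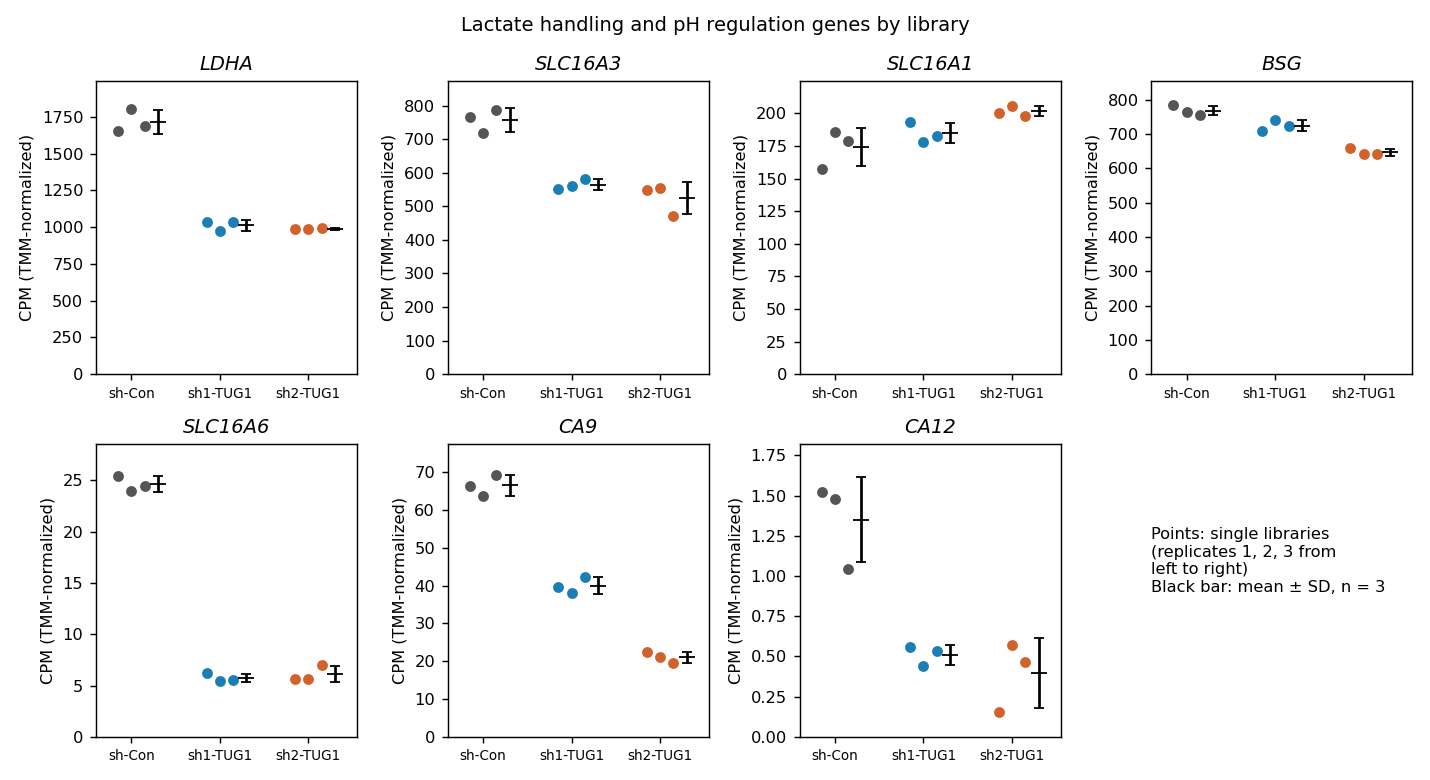
Level of the 7 genes in each library, in TMM-normalized CPM on linear axes from 0, for sh-Con, sh1-TUG1 and sh2-TUG1, with points for single libraries and a black bar for the mean ± SD (n = 3). LDHA, SLC16A3, BSG, SLC16A6, CA9 and CA12 lay lower in all knockdown libraries than in any sh-Con library, although BSG did not pass the test in sh1-TUG1. SLC16A1 overlapped sh-Con in sh1-TUG1 and lay above it in sh2-TUG1.

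LDHA, on the plus strand of chromosome 11 (chr11:18394388-18408425, GRCh38), encodes the A subunit of lactate dehydrogenase. Its level was 1653, 1805 and 1689 CPM in the sh-Con libraries, 1032, 971 and 1037 CPM with the first hairpin (sh1-TUG1) and 986, 985 and 995 CPM with the second (sh2-TUG1). All 6 knockdown libraries lay below every control library, and the knockdown lines overlapped each other. LDHA fell by 41.0% in sh1-TUG1, a log2 fold change of -0.76 ± 0.046 (SE, adjusted p = 6.12e-06, edgeR quasi-likelihood test). In sh2-TUG1 it fell by 42.5%, a log2 fold change of -0.80 ± 0.046 (adjusted p = 1.98e-06, edgeR). The difference between the lines was -0.036 ± 0.042 on the log2 scale and did not pass the test (adjusted p = 0.515, edgeR). GENCODE 29 names 6 pseudogenes of LDHA, and also 1 of SLC16A1 and 1 of SLC16A6. How reads shared with these pseudogenes were assigned is not given in the sources used here.

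SLC16A3, the carrier known for lactate export, lies on the plus strand of chromosome 17 (chr17:82228397-82261129). The sh-Con libraries had 767, 718 and 786 CPM, those of sh1-TUG1 551, 561 and 582 CPM, and those of sh2-TUG1 550, 555 and 470 CPM. Every knockdown library was below every control library, with the lowest value in replicate 3 of sh2-TUG1. The log2 fold change was -0.42 ± 0.046 (SE) in sh1-TUG1 and -0.53 ± 0.068 in sh2-TUG1, with edgeR adjusted p-values of 0.000188 and 0.00025. Both changes were smaller than 1.5-fold, and SLC16A3 was a DEG in neither line. Its exons share 482 bases (5.36%) with CSNK1D on the other strand, which had log2 fold changes of 0.016 (adjusted p = 0.851, edgeR) in sh1-TUG1 and 0.28 (adjusted p = 0.00254, edgeR) in sh2-TUG1, not lower in either line.

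SLC16A1, the bidirectional carrier, lies on the minus strand of chromosome 1 (chr1:112911847-112957013). The sh-Con libraries had 157, 185 and 179 CPM, the sh1-TUG1 libraries 193, 178 and 183 CPM, and the sh2-TUG1 libraries 201, 206 and 198 CPM. The sh1-TUG1 libraries overlapped the controls, and the sh2-TUG1 libraries lay above both other groups. The log2 fold change was 0.087 ± 0.064 (SE, adjusted p = 0.363, edgeR) in sh1-TUG1 and 0.21 ± 0.064 (adjusted p = 0.0233, edgeR) in sh2-TUG1. This increase of 15.7% lost its call in several fits, the adjusted p being 0.0609 without sh2-TUG1 replicate 1, 0.0807 without sh2-TUG1 replicate 2 and 0.057 with library size alone as the scaling (edgeR). The difference between the lines, 0.12 ± 0.058, did not pass (adjusted p = 0.103, edgeR).

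Because the carriers did not move alike, the number of SLC16A3 counts per SLC16A1 count was computed within each library, a ratio that does not depend on library size and that was chosen after the values were seen. It was 4.87, 3.88 and 4.40 in sh-Con, 2.85, 3.14 and 3.19 in sh1-TUG1 and 2.74, 2.70 and 2.37 in sh2-TUG1. The means were 4.38 ± 0.499, 3.06 ± 0.184 and 2.60 ± 0.203 (SD, n = 3). No library of one group overlapped another group, and the ratio is given as a description without a test. It compares counts, not molecules, since the genes differ in length.

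**Figure D2:**
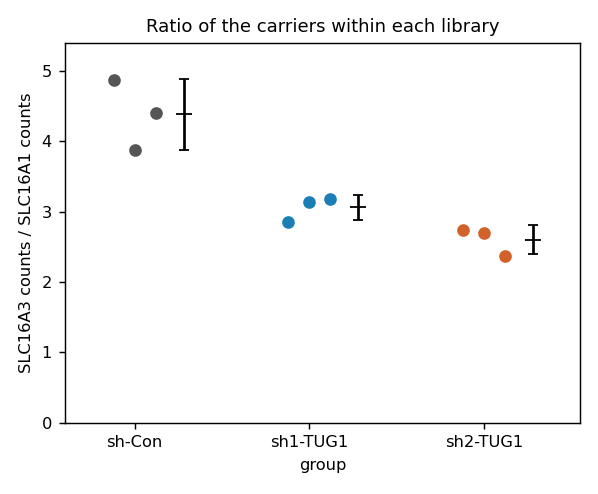
Counts of SLC16A3 divided by counts of SLC16A1 in each library (vertical axis from 0, no unit) for the 3 groups, with the mean ± SD (n = 3) in black. The control libraries lay between 3.88 and 4.87 and the knockdown libraries between 2.37 and 3.19.

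BSG, the chaperone of both carriers, lies on the plus strand of chromosome 19 (chr19:571277-583493). The sh-Con libraries had 784, 765 and 757 CPM, those with the first hairpin 709, 741 and 725 CPM, and those with the second 660, 642 and 641 CPM. The groups did not overlap, and sh2-TUG1 was lowest. The log2 fold change of -0.085 ± 0.037 (SE) in sh1-TUG1 did not pass the test (adjusted p = 0.128, edgeR), whereas in sh2-TUG1 BSG fell by 15.9%, a log2 fold change of -0.25 ± 0.040 (adjusted p = 0.000987, edgeR). The lines differed by -0.16 ± 0.035 on the log2 scale (adjusted p = 0.0031, edgeR).

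SLC16A6 (MCT7), a less studied carrier linked to the transport of ketone bodies, had the largest fold change of the 7 genes in both lines. It lies on the minus strand of chromosome 17 (chr17:68267026-68291267). The sh-Con libraries had 25.4, 23.9 and 24.5 CPM, the sh1-TUG1 libraries 6.18, 5.49 and 5.52 CPM and the sh2-TUG1 libraries 5.66, 5.63 and 6.97 CPM. All knockdown libraries lay far below the controls, and the lines overlapped each other. The gene had 809 to 914 counts per library in sh-Con and 184 to 269 in the knockdown lines. It fell by 76.7% in sh1-TUG1, a log2 fold change of -2.10 ± 0.087 (SE, adjusted p = 5.50e-07, edgeR), and fell by 75.2% in sh2-TUG1, a log2 fold change of -2.01 ± 0.10 (adjusted p = 1.21e-06, edgeR). The difference between the lines was 0.091 ± 0.11 and did not pass (adjusted p = 0.530, edgeR).

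The exons of SLC16A6 share 144 bases (3.55%) with ARSG, an arylsulfatase gene on the other strand, and whether the counting used strand is not given in the sources used here. ARSG was also a downregulated DEG in both lines, with 17.8 ± 1.49 CPM in sh-Con, 10.4 ± 0.192 CPM in sh1-TUG1 and 7.74 ± 0.735 CPM in sh2-TUG1 (SD, n = 3). Its log2 fold changes were -0.77 (adjusted p = 0.000311, edgeR) and -1.20 (adjusted p = 3.13e-05, edgeR). The part of the shared bases in either gene's change was not tested.

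CA9, a tumour-associated carbonic anhydrase, lies on the plus strand of chromosome 9 (chr9:35673856-35681159) and had the largest tested difference between the hairpins among the 7 genes. Its level in the sh-Con libraries was 66.4, 63.8 and 69.3 CPM, with sh1-TUG1 at 39.7, 37.9 and 42.3 CPM and sh2-TUG1 at 22.5, 21.2 and 19.6 CPM. The 3 groups did not overlap and stepped down in that order. CA9 fell by 39.9% in sh1-TUG1, a log2 fold change of -0.73 ± 0.061 (SE, adjusted p = 4.12e-05, edgeR), and fell by 68.4% in sh2-TUG1, a log2 fold change of -1.66 ± 0.069 (adjusted p = 4.42e-07, edgeR). Between the lines, CA9 was lower in sh2-TUG1 by a log2 fold change of -0.92 ± 0.066 (adjusted p = 1.10e-06, edgeR).

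ARHGEF39 on the other strand shares 643 bases, 38.5% of the exons of CA9, and reads of the genes may be mixed if strand was not used. ARHGEF39 had 5.80 ± 1.27 CPM in sh-Con, 5.53 ± 0.223 CPM in sh1-TUG1 and 4.07 ± 0.766 CPM in sh2-TUG1 (SD, n = 3). Its log2 fold changes of -0.073 (adjusted p = 0.805, edgeR) and -0.52 (adjusted p = 0.0745, edgeR) did not pass the test. The part of the shared bases in the change of CA9 was not tested.

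CA12, the other membrane carbonic anhydrase, lies on the minus strand of chromosome 15 (chr15:63321378-63382161) and had few counts. It had 50, 50 and 39 counts in the sh-Con libraries, 19, 16 and 20 in sh1-TUG1 and 5, 19 and 18 in sh2-TUG1. The knockdown libraries all lay below the controls, and replicate 1 of sh2-TUG1 stood below the rest. Its level was 1.04 to 1.53 CPM in sh-Con, 0.441 to 0.556 CPM in sh1-TUG1 and 0.154 to 0.569 CPM in sh2-TUG1. CA12 thus reached 1 CPM only in the group where it was high. For a gene kept in this way a fall is more readily called than a rise. The log2 fold change was -1.40 ± 0.28 (SE, adjusted p = 0.00554, edgeR) in sh1-TUG1 and -1.75 ± 0.40 (adjusted p = 0.00615, edgeR) in sh2-TUG1, and these standard errors were the largest of the 7 genes. The lines differed by -0.35 ± 0.39, which did not pass the test (adjusted p = 0.508, edgeR), and without sh2-TUG1 replicate 1 the difference was 0.019. At this depth the difference between the lines was not resolved for CA12.

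**Figure D3:**
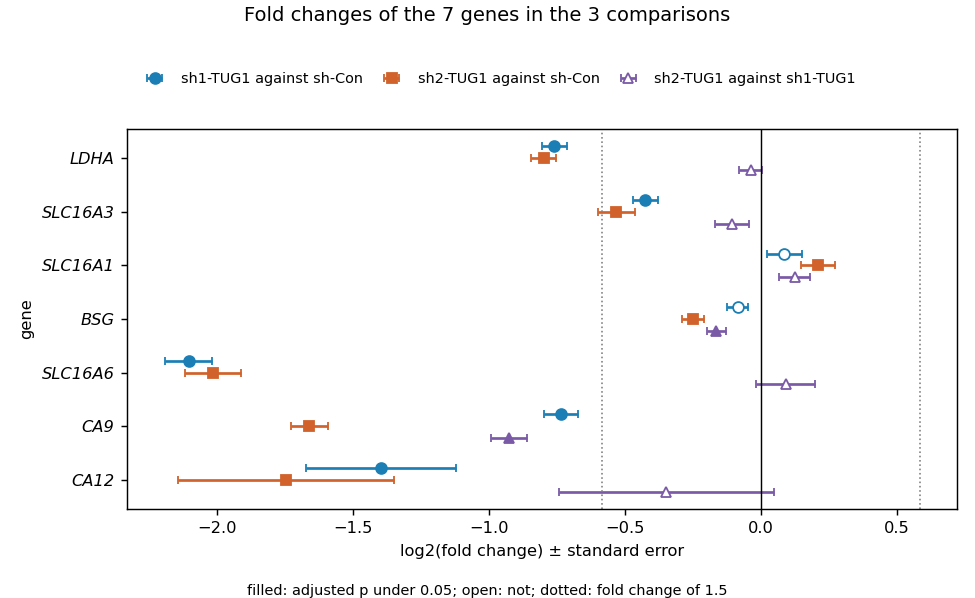
Log2 fold changes (horizontal axis) ± standard error of the 7 genes for sh1-TUG1 against sh-Con (circles), sh2-TUG1 against sh-Con (squares) and sh2-TUG1 against sh1-TUG1 (triangles), filled where the adjusted p was under 0.05, with dotted lines at a 1.5-fold change. Between the knockdown lines the triangles of BSG and CA9 are filled, at -0.16 and -0.92.

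Tested directly against each other, the knockdown lines differed in 2 of the 7 genes by adjusted p, BSG and CA9, both lower in sh2-TUG1, where 21.7% of 12854 genes were lower. CA9 was the 1 DEG of the 7, where 8.04% of all genes were downregulated DEGs. By this edgeR test 0 of the 7 were higher in sh2-TUG1, where 21% of all genes were (2.56% as upregulated DEGs), and 0 were by unadjusted p under 0.05 or by DESeq2, although SLC16A1 passed when the 6 knockdown libraries were fitted without the controls (adjusted p = 0.0295, edgeR). The libraries of BSG and CA9 lay wholly lower in sh2-TUG1, where 27.6% of all genes did, and those of SLC16A1 wholly higher, where 27.8% did. For LDHA, SLC16A3, SLC16A6 and CA12 the test did not show a difference between the hairpins.

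The levels of the genes were compared per kilobase of exons (CPM divided by the length of the union of GENCODE 29 exons). In sh-Con, LDHA stood highest with 276 ± 12.8 CPM per kb, then BSG with 202 ± 3.71, SLC16A3 with 84.2 ± 3.90, CA9 with 39.8 ± 1.64, SLC16A1 with 32.7 ± 2.74, SLC16A6 with 6.06 ± 0.189 and CA12 with 0.185 ± 0.0362 (SD, n = 3). No neighbours in this order overlapped in their libraries. With the longest transcript as the length, CA9 (39.4 to 42.8 CPM per kb) and SLC16A1 (36.0 to 42.4 CPM per kb) overlapped and could not be ordered.

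In the knockdown lines the order changed in 2 places. BSG, with 191 ± 4.25 CPM per kb in sh1-TUG1 and 170 ± 2.81 in sh2-TUG1, was above LDHA, with 163 ± 5.91 and 159 ± 0.862. SLC16A1, with 34.8 ± 1.46 and 37.9 ± 0.717 CPM per kb, was above CA9, with 23.9 ± 1.32 and 12.6 ± 0.868. The exchange of LDHA and BSG depended on the length used. With the longest transcript LDHA (420 ± 15.2 and 409 ± 2.22 CPM per kb) remained above BSG (339 ± 7.53 and 302 ± 4.98). By that length SLC16A1 (42.3 ± 1.77 and 46.1 ± 0.871) was still above CA9 (24.7 ± 1.36 and 13.0 ± 0.896) in the knockdown lines. For CA9 and SLC16A1, the order depended on the length only in sh-Con, where they overlapped with the longest transcript.

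**Figure D4:**
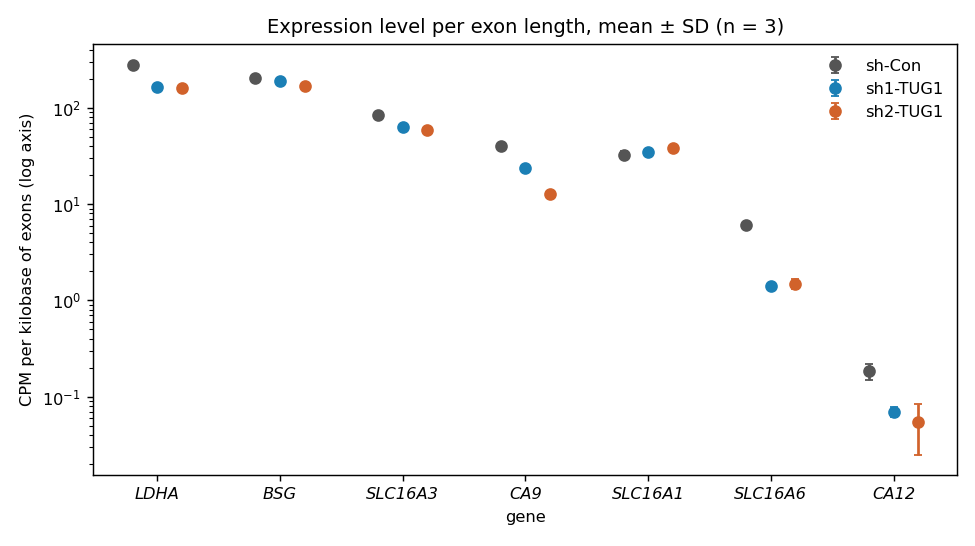
Level per exon length (CPM per kilobase, log axis) of the 7 genes, ordered by sh-Con, as mean ± SD (n = 3) for the 3 groups. Levels in sh-Con ran from 276 for LDHA to 0.185 for CA12, and the points of SLC16A1 lay above those of CA9 in both knockdown lines.

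For each of the 5 genes that changed in the same direction in both lines, the genes with the most similar profile, up to 3 for each, were sought among 9311 genes (9312 for CA12) with a mean of at least 10 CPM. Likeness was the root-mean-square distance between log2 CPM profiles over the 9 libraries, each centred on the sh-Con mean, and is a description. Nearest to LDHA were P4HA1, a subunit of collagen prolyl hydroxylase, at a distance of 0.027, BNIP3, a mitochondrial protein of mitophagy, at 0.055, and TCIM at 0.098, beside a median distance of 0.66 over all candidates. P4HA1 had log2 fold changes of -0.73 and -0.78 with the first and the second hairpin.

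Nearest to SLC16A3 were ID2 (0.067), EGLN1 (0.075), a prolyl hydroxylase that senses oxygen, and ACTG1 (0.077), beside a median of 0.44. CA9 was followed most closely by TMC8 (0.096), TMEM141 (0.11) and PFKFB4 (0.13), an enzyme that sets the level of fructose 2,6-bisphosphate, beside a median of 1.07. PFKFB4 had log2 fold changes of -0.93 and -1.59, where those of CA9 were -0.73 and -1.66. Genes near to SLC16A6 were farther off, with CPLX2 at 0.28 and APOL1 at 0.29, beside a median of 1.70. For CA12, whose low counts blur its profile, RNASET2, CAVIN2 and CD68 lay at 0.42, 0.42 and 0.44, beside a median of 1.35. The genes named here as near to a member were all lower in both lines by adjusted p, as a profile like that of their partner requires.

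The other genes of lactate, carrier and pH biology were taken from 7 lists, with 107 genes, of which 71 were tested. These lists were also chosen by function with earlier results of these data known. In sh1-TUG1, 2 of the 71 were downregulated and 2 upregulated DEGs, and by adjusted p alone 10 were lower, 19 higher and 42 did not pass. In sh2-TUG1, 7 were downregulated and 5 upregulated DEGs, and 13 were lower, 23 higher and 35 did not pass. The medians were 0.069 and 0.092 on the log2 scale, above 0 where those of the 7 genes were -0.73 and -0.80. The wider genes called lower by adjusted p, 10 and 13 of 71, may be read beside the 12.3% and 21.9% of all genes. Those called higher may be read beside 12.5% and 21.6%. The same shares apply to the counts by adjusted p of each single list given below. Downregulated DEGs, 2 and 7 of the 71, stand beside DEG shares of 2.52% and 8.97% over all genes. For upregulated DEGs, 2 and 5 of the 71, these shares were 2.44% and 4.35%.

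**Figure D5:**
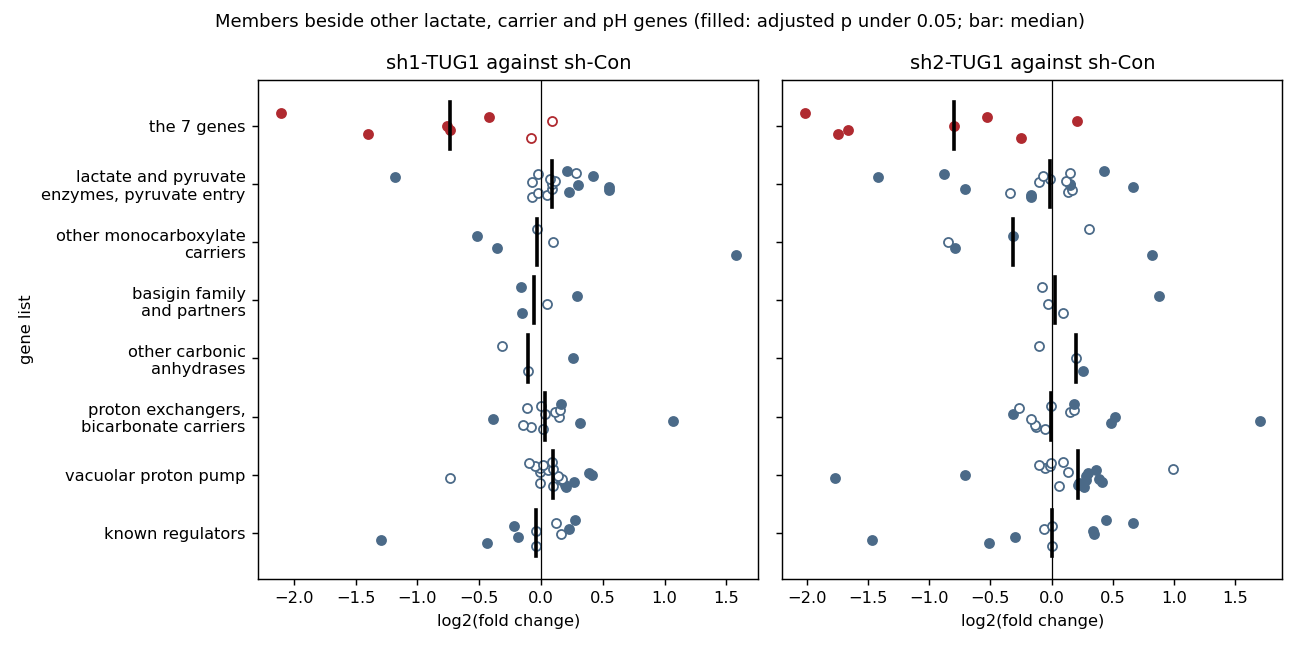
Log2 fold change (horizontal axis) of each tested gene of the set of 7 (red) and of 7 wider lists (blue), in sh1-TUG1 (left) and sh2-TUG1 (right) against sh-Con, filled where the adjusted p was under 0.05, with a black bar at each list's median. The median of the 7 genes lay at -0.73 and -0.80, and those of the wider lists lay between -0.11 and 0.22 except that of the other monocarboxylate carriers in sh2-TUG1 (-0.32), which rests on 5 genes.

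Among enzymes of lactate and pyruvate and the pyruvate carrier of mitochondria, 17 of 21 genes were tested, with 1 lower and 6 higher in sh1-TUG1 and 5 lower and 3 higher in sh2-TUG1 by adjusted p. PDK1, the kinase that switches off pyruvate dehydrogenase, was a downregulated DEG in both lines, with 78.2 ± 4.12 CPM in sh-Con, 34.4 ± 2.43 CPM in sh1-TUG1 and 29.2 ± 0.946 CPM in sh2-TUG1 (SD, n = 3). Its log2 fold changes were -1.19 and -1.42. MPC1, a subunit of the mitochondrial pyruvate carrier, moved the other way, with 52.9 ± 1.98 CPM, 77.6 ± 2.47 CPM and 83.9 ± 1.37 CPM in the same order, and rose by 0.55 and 0.66 on the log2 scale. LDHD, the mitochondrial D-lactate dehydrogenase, fell by 0.71 on the log2 scale in sh2-TUG1, and PDK3 fell by 0.88, while in sh1-TUG1 LDHD (0.093) and PDK3 (-0.023) did not pass.

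Of 13 other members of the monocarboxylate carrier family, 5 were tested, with 2 lower and 1 higher by adjusted p in each line. SLC16A10, a carrier of aromatic amino acids, was an upregulated DEG in both lines, its sh-Con libraries spanning 3.97 to 6.62 CPM, those of sh1-TUG1 13.5 to 16.0 CPM and those of sh2-TUG1 7.96 to 9.49 CPM. Its log2 fold changes were 1.58 and 0.82. SLC16A13 fell by 0.35 and 0.79 on the log2 scale. In the basigin family and its partners 4 of 6 genes were tested, with 2 lower and 1 higher in sh1-TUG1 and 1 higher in sh2-TUG1. SLC3A2, the heavy chain of amino acid transporters that associates with basigin, rose by 0.29 in sh1-TUG1 and 0.88 in sh2-TUG1 on the log2 scale. SLC3A2 and the vacuolar pump genes given next were named after their values were seen.

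Of 13 other carbonic anhydrases, 3 were tested (CA5A, CA5B and CA13), with 1 higher by adjusted p in each line, CA5A by 0.26 on the log2 scale in sh1-TUG1 and CA13 by 0.26 in sh2-TUG1. Neither change reached 1.5-fold. Among exchangers of protons and bicarbonate, 13 of 23 genes were tested, with 1 lower and 3 higher in sh1-TUG1 and 1 lower and 4 higher in sh2-TUG1. SLC4A3, an anion exchanger, was the DEG of this list in both lines and rose from 1.54 ± 0.279 CPM in sh-Con to 3.22 ± 0.377 CPM in sh1-TUG1 and 5.00 ± 0.531 CPM in sh2-TUG1 (SD, n = 3), with log2 fold changes of 1.07 and 1.70. Of the vacuolar proton pump, 19 of 21 genes were tested, with 5 higher and, by edgeR, 0 lower in sh1-TUG1 (1, ATP6V0D2, by unadjusted p under 0.05), and with 2 lower and 9 higher in sh2-TUG1. The 2 lower genes were ATP6V0D2 (-1.77) and ATP6V0E2 (-0.70), and ATP6V0E2 had risen by 0.42 in sh1-TUG1. ATP6V0D2 had few counts, 55 to 96 per library in sh-Con and 20 to 27 in sh2-TUG1.

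All 10 genes of a list of known regulators of the set were tested, with 4 lower and 2 higher in sh1-TUG1 and 3 lower and 4 higher in sh2-TUG1. Over all genes, 12.3% were lower and 12.5% higher in sh1-TUG1, and 21.9% lower and 21.6% higher in sh2-TUG1. EGLN3, a prolyl hydroxylase that acts on hypoxia-inducible factors and is itself raised by hypoxia, was a downregulated DEG in both lines, with 87.9 ± 4.72 CPM in sh-Con, 35.8 ± 0.784 CPM in sh1-TUG1 and 31.8 ± 1.79 CPM in sh2-TUG1 (SD, n = 3). Its log2 fold changes were -1.30 and -1.47. PPARGC1A, a coactivator of mitochondrial gene expression, had 64.9 ± 2.30 CPM, 70.7 ± 2.50 CPM and 103 ± 3.11 CPM in the same order, a log2 fold change of 0.12 that did not pass in sh1-TUG1 (adjusted p = 0.13, edgeR) and an increase of 0.66 in sh2-TUG1 (adjusted p = 1.40e-05, edgeR).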

How the data were processed

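RNA of 9 HepG2 libraries, 3 per group, was sequenced by a company. The authors deposited raw read counts per gene in 2 tables, which hold sh-Con with sh1-TUG1 and sh-Con with sh2-TUG1. The submitters' processing notes name HISAT2, StringTie and GRCh38, with no versions. The same tables hold FPKM, false discovery rates and log2 fold changes of the authors' own comparisons, which were not used. Rows without an Ensembl identifier (1087 and 1082, new loci) were kept in the fits.

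Counts were tested by edgeR 4.0.16 under R 4.3.3 (TMM scaling, filterByExpr, which removed 0 genes, and the quasi-likelihood test), in fits of 6 libraries for each line against sh-Con and of 9 libraries for the difference between the lines, and p-values were adjusted by Benjamini-Hochberg over all genes of the fit. A standard error is the log2 fold change divided by the square root of its F statistic. CPM per library used a TMM scaling of the 9 libraries, so that fold changes from the fits of 6 libraries can differ slightly from ratios of these values. Log2 CPM used a prior count of 2. The code was tested on simulated data. An exact permutation test of 3 libraries against 3 cannot go below 0.1 and was not used. Replicates differed by more than sampling noise, with a chi-squared per degree of freedom of 6.41 to 25.8. Depth limited CA12 most. Coordinates are those of GENCODE 29.

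The genes and lists were chosen by function with earlier results of these data known. The text names all members, the 3 nearest profiles of each member that changed alike in both lines (1 of them is not reported here), up to 4 DEGs with the largest fold change from each wider list apart from the basigin and vacuolar pump lists, and listed genes whose exons overlap a member. Alternatives were RLE or library-size scaling, another filter (1 CPM or more in 3 libraries) or none, DESeq2 1.42.0, a replicate block, other sets of libraries in the fit, and leaving out each library. The planned ratio of LDHA to LDHB was not computed because LDHB was not analysed here.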

Additional observations from a re-analysis of the deposited data

Results flagged for a closer look

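Of 16 genes compared directly between the knockdown lines, the 7 members and 9 named genes of the wider lists, 10 had a log2 difference of sh2-TUG1 minus sh1-TUG1 that passed an adjusted p under 0.05 (edgeR). Over all 12854 genes, 21.7% were lower and 21% higher by this test, and the 9 named genes had been taken as DEGs with the largest fold changes of their lists. Among the members these were CA9, at -0.925, and BSG, at -0.163. The other genes lower under the second hairpin were PDK3 (-0.857), LDHD (-0.797), SLC16A10 (-0.755), SLC16A13 (-0.435), PDK1 (-0.234) and EGLN3 (-0.169). Genes higher in sh2-TUG1 were SLC4A3 (0.635) and PPARGC1A (0.543). The difference in EGLN3 lost its call in 5 of the fits that leave out a library, with adjusted p-values of 0.0532 to 0.143 (edgeR). That in PDK1 lost it without sh1-TUG1 replicate 1 (adjusted p = 0.0543, edgeR), and that in SLC4A3 without sh1-TUG1 replicate 2 (adjusted p = 0.0578, edgeR) or sh2-TUG1 replicate 3 (adjusted p = 0.0631, edgeR).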

How the results depend on the processing

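Of 624 values of single genes under the alternatives, 605 kept their direction and their side of the threshold, 12 lost the call, 2 gained it and 5 changed sign. The fits with no filter could not differ from the main fits, since filterByExpr removed 0 genes. With the filter of 1 CPM, the DEGs over all genes also numbered as in the main fits (328 lower and 318 higher in sh1-TUG1). Values under both filter settings are included in the 624, so that this total overstates the number of real checks. The counts of members downregulated as DEGs (4 in each line against sh-Con, 1 between the lines) were the same under every alternative run. Of the 4, CA12 passed the filter of 1 CPM only through sh-Con, where it was high, so that filter was no independent check of its fall. The count of members higher in sh2-TUG1, which is SLC16A1 alone, fell from 1 to 0 with library size alone and ranged from 0 to 1 when single libraries were left out. Between the lines, the count of higher members was 1 with only the 6 knockdown libraries. With library size alone SLC16A3 was lower under the second hairpin than under the first (log2 difference -0.17, adjusted p = 0.0389, edgeR). The count of wider genes upregulated as DEGs between the lines, 2 (SLC3A2 and SLC4A3), was 0 with library size alone and ranged from 0 to 2 when single libraries were left out. The values that changed sign had all missed the threshold: PDK3 in sh1-TUG1 (0.0036 with library size alone, 0.044 without sh-Con replicate 2, 0.035 without sh1-TUG1 replicate 3, and a range of -0.10 to 0.044 over all libraries left out), the difference between the lines in CA12 (0.019 without sh2-TUG1 replicate 1, range -0.67 to 0.019) and that in SLC16A6 (-0.023 without sh2-TUG1 replicate 3, range -0.023 to 0.15). With the longest transcript as length, the levels in sh-Con were 710 CPM per kb for LDHA, 359 for BSG, 157 for SLC16A3, 39.7 for SLC16A1 and 6.47 for SLC16A6, since the divisor is shorter.

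Replicate numbers did not pair the samples, as deviations from the group means correlated at -0.194 to 0.0499 between same-numbered libraries and at -0.137 to 0.254 between others. With the replicate block, LDHA had log2 fold changes of -0.76 and -0.80, 4 members were DEGs in each line, and the block changed no call of a member. It ended that of EGLN3 between the lines (-0.17, adjusted p = 0.0615, edgeR). DEGs over all genes numbered 292 lower and 305 higher in sh1-TUG1 under the block, and 1107 lower and 539 higher in sh2-TUG1. The cause of these changes was not tested.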
